A study of Homo sapiens with 12 samples.

Results

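EPHA1 and EPHA2 are the 2 ephrin-A class receptors that the panel measured in HCT-116 cells, an established human colorectal carcinoma line, and they were taken by name from a panel of 770 genes. They were chosen by their group means and the authors' p-values, which differed between the treatments, so the levels and ratios of both genes below describe the values behind the choice and carry no test of their own. The labels put 12 samples in 4 groups of 3, and all cells were harvested after 24 h. The groups were heteronemin plus tetrac (called the combination), heteronemin alone, tetrac alone, and control. Marine sponges are the source of heteronemin, a sesterterpenoid; tetrac, or tetraiodothyroacetic acid, is a derivative of the thyroid hormone thyroxine. The labels give no doses, so it is not known here whether each compound had the same dose alone and in the combination. The labels do not say what the control cells received or whether samples of a group were separate cultures, so the authors' p-values may measure technical spread. The study's title concerns EGF receptor signalling and proliferation, and the panel counts transcripts only.

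Eph receptors are receptor tyrosine kinases that bind ephrins, which are held on the membrane of a neighbouring cell, so they signal where cells touch. Class A receptors mainly bind ephrins that are tethered by a lipid anchor, and class B receptors mainly bind transmembrane ephrins. EPHA1 was the founding member of the family and is found mostly in epithelia. EPHA2 is widespread in epithelia and carcinomas: ephrin binding restrains adhesion and growth signals, whereas unliganded EPHA2 phosphorylated on a serine by AKT or RSK kinases favours migration. Transcription of EPHA2 is known to be raised by RAS and ERK signalling, the route that also runs downstream of the EGF receptor.

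Since transcripts were measured, the 250 bases before the RefSeq start of each gene are shown as the control regions nearest to the counted RNAs (GRCh38.p14, both on the minus strand, 5′ to 3′). The EPHA1 window is chr7:143408857-143409106 and the EPHA2 window is chr1:16156070-16156319. Capitals mark matches on either strand to the GC box GGGCGG, read as CCGCCC on the other strand, and to the cyclic AMP response element TGACGTCA.
EPHA1: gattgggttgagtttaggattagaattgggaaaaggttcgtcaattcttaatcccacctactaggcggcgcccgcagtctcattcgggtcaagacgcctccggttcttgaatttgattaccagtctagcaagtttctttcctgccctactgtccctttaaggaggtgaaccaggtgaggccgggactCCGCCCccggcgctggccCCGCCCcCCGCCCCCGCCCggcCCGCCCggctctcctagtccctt
EPHA2: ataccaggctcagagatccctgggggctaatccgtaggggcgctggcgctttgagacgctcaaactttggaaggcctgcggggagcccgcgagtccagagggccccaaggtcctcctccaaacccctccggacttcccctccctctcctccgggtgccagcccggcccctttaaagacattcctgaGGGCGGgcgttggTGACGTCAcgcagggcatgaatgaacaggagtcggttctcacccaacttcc
The EPHA1 window held 5 GC boxes, all within 63 bases of the start, and the EPHA2 window held 1. A GC box was present in 42.6% of 35116 RefSeq promoter windows of the same length. The EPHA2 window also held 1 cyclic AMP response element, 51 to 44 bases before the start, a motif found in 1.65% of those windows. The EPHA1 window held 0. Neither window held the AP-1 motif TGANTCA (6.57% of windows) or the TATA box TATAAA (10.7% of windows), each searched on both strands, and no 2 of the marked motifs overlapped. Both windows were close to the middle of all promoters in base composition, with 59.2% G and C for EPHA1 and 63.2% for EPHA2, against a median of 58.0%. These matches describe letters only.

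The values are the authors' means of normalized counts, 1 per group, so a spread between samples cannot be given. EPHA1 had a mean of 128.22 after the combination, 153.48 after heteronemin and 173.51 after tetrac, against 156.32 in control. Its order from high to low was tetrac, control, heteronemin, combination. EPHA2 had a mean of 559.31 after the combination, 383.56 after heteronemin and 318.12 after tetrac, against 385.25 in control. Its order was combination, control, heteronemin, tetrac, so the group with the highest mean of one receptor had the lowest mean of the other, and control and heteronemin lay side by side in the middle for both. The lowest value in the tables, 33, is taken as the authors' floor; both genes lay above it in every group. In these bulk samples, fewer expressing cells and less RNA per cell cannot be told apart.

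**Figure D1:**
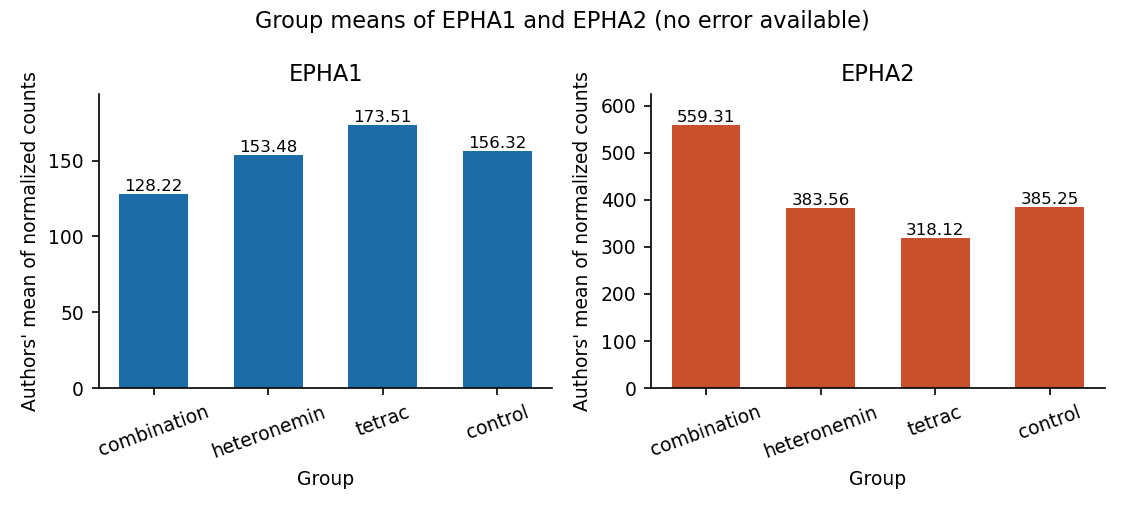
Authors' mean of normalized counts (vertical axis, from 0) of EPHA1 and EPHA2 in the 4 groups; bars are single group means, for which no error is available. EPHA1 is highest after tetrac at 173.51 and lowest after the combination at 128.22, and EPHA2 is highest after the combination at 559.31 and lowest after tetrac at 318.12.

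The combination was compared with control for the joint effect of the compounds. EPHA2 was 1.45-fold higher and EPHA1 1.22-fold lower by the authors' means. On the log2 scale these are ratios of 0.54 and -0.29; with the groups scaled to an equal panel sum, EPHA1 was at -0.12. In the authors' deposited table both genes had p = 0.09, above the threshold of 0.05 used here for a call. So 0 of the 2 genes were called, where 22.3% of 686 tested genes were, 8.16% higher and 14.1% lower. Benjamini-Hochberg adjustment of the authors' deposited table over its tested genes gave 0.274 for each. For scale, the median log2 ratio over the 482 genes above the floor in all 4 groups was -0.058, and the quartiles were -0.29 and 0.30. EPHA2 had the rank 67 from the top of the 482, and EPHA1 lay just above the lower quartile, with 25.5% of genes lower. The 482 leave out the 279 genes at the floor in control, which can only be level or higher after treatment. Including them could not bring EPHA2 nearer to the top, and ranks from the top against control hold for the 482 only.

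Heteronemin alone left the means of both genes close to control. The log2 ratio was -0.026 for EPHA1 and -0.0063 for EPHA2, with p = 0.84 and p = 0.97 in the authors' deposited table. Called genes were 0 of 2, against 27.1% of 704 tested genes, 11.2% higher and 15.9% lower. The values lay near the median log2 ratio of -0.072 over the 482 genes. The signs of these small ratios depended on scaling: with the groups scaled to an equal panel sum they were 0.22 for EPHA1 and 0.24 for EPHA2. A p above the threshold does not show that heteronemin was without effect on either receptor.

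Tetrac alone was the comparison in which EPHA1 was called. Its mean was 1.11-fold higher than in control, a log2 ratio of 0.15, and the authors' deposited table gave p = 0.03. It was 1 of 2 genes called higher by tetrac, or 0.28% of 714 tested genes, and genes called in either direction made up 1.26%. Adjusted over the table, the p of EPHA1 was 0.650, so it failed that correction. EPHA2 was 1.21-fold lower, a log2 ratio of -0.28; at p = 0.16 in the authors' deposited table it was not called. The uncalled ratio of EPHA2 was larger in size than the called ratio of EPHA1 as deposited, but scaled to an equal panel sum EPHA2 was at -0.16 and EPHA1 at 0.27. Among the 482 genes it had the rank 8 from the bottom, while EPHA1 had the rank 104 from the top. Among the 356 of these genes whose 4 group means averaged at least 100, EPHA1 had the rank 22 from the top and EPHA2 the rank 7 from the bottom.

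The combination was then set against each single compound. The deposited tables hold comparisons with control only, so these contrasts are quotients of the authors' means without a test. Against tetrac, the combination had 1.76-fold more EPHA2, a log2 ratio of 0.81, and 1.35-fold less EPHA1, a log2 ratio of -0.44. EPHA2 passed a fold of 1.5 here, as did 7.68% of the 482 genes in the higher direction, and EPHA1 did not pass it in the lower direction, where 2.7% did. Against heteronemin, the combination had 1.46-fold more EPHA2, a log2 ratio of 0.54, and 1.20-fold less EPHA1, a log2 ratio of -0.26. Neither gene reached 1.5-fold, nor did most of the panel, with 0.415% of genes higher and 6.02% lower by that much. EPHA2 nonetheless had the rank 5 from the top of the 482 genes against heteronemin and 23 against tetrac. For EPHA1, 19.5% of the 482 genes had a lower ratio against heteronemin and 8.51% against tetrac; among the 356 genes of higher level these shares were 7.58% and 10.1%. Minus the median of 51 genes of like level, the log2 ratio of EPHA1 against heteronemin was -0.14. Heteronemin against tetrac gave log2 ratios of 0.27 for EPHA2 and -0.18 for EPHA1, or 0.40 and -0.047 with the groups scaled to an equal panel sum.

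If the 2 single compounds had added up on the log2 scale, the combination would have had a mean of 317 for EPHA2 and 170 for EPHA1. The authors' means were 559.31 and 128.22. EPHA2 was thus 1.77-fold above the additive value, a log2 departure of 0.82, and EPHA1 1.33-fold below it, a log2 departure of -0.41. The departure of EPHA2 had the rank 2 from the top of the 482 genes, and 1.04% of them lay 1.5-fold or more above their additive value. For EPHA1, 20.5% of the 482 genes lay further below, and 13.9% lay 1.5-fold or more below. Among the 356 genes of higher level, 6.18% lay further below than EPHA1, and EPHA2 again had the rank 2 from the top. With the groups scaled to an equal panel sum, the departure of EPHA1 was -0.62 and that of EPHA2 was 0.61. Minus the median of 51 genes of like level, they were -0.35 and 0.57. The median departure was 0.090 over the 482 genes and 0.18 over the 356 genes of higher level. No test of these departures was possible from group means.

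**Figure D2:**
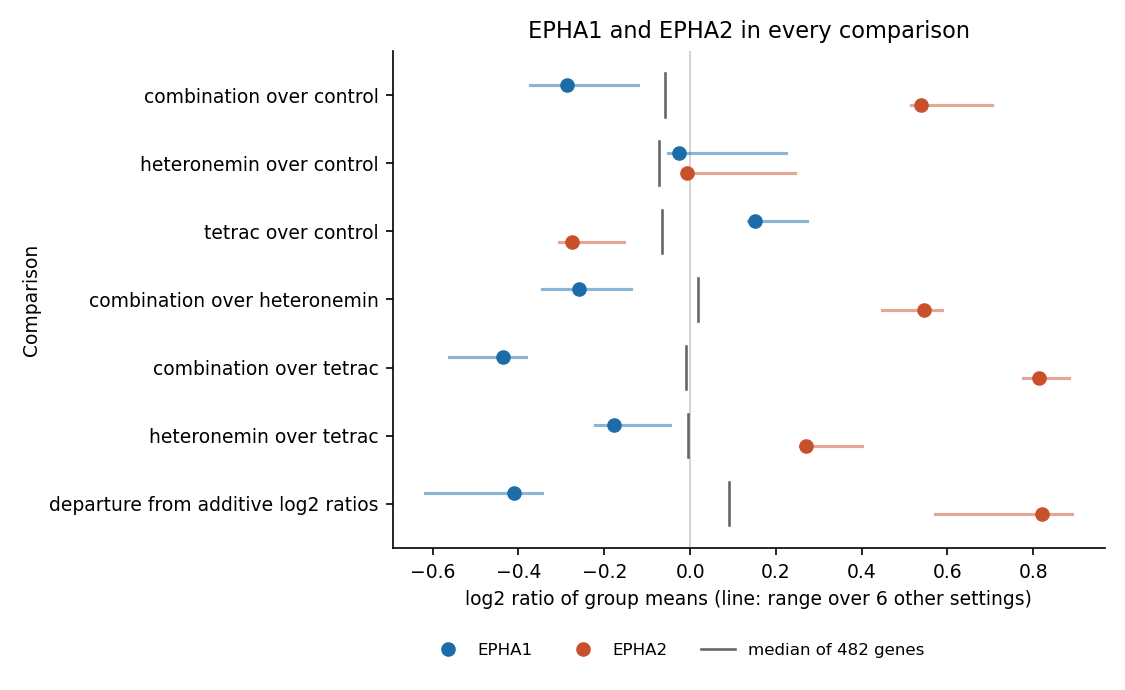
Log2 ratios of group means (horizontal axis) for EPHA1 and EPHA2 in 6 comparisons and in the departure of the combination from additive log2 ratios; points are the reported values, coloured lines the range over 6 other settings of scaling, pseudocount, floor and level, and grey ticks the median of 482 genes. EPHA2 lies right of 0 and EPHA1 left of it wherever the combination is compared, with 0.81 and -0.44 against tetrac, and both lie near 0 for heteronemin over control.

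Tetrac had opposite signs without and with heteronemin for each receptor. EPHA2 had a log2 ratio of -0.28 for tetrac over control and of 0.54 for the combination over heteronemin, and EPHA1 had 0.15 and -0.26. These comparisons share no group of samples. The turn in sign was common on the panel: 361 of the 482 genes, or 74.9%, had opposite signs, and 71.6% did among the 356 genes of higher level. With limits set at its own values, which it meets by definition, EPHA2 was the 1 gene of the 482 to pass both. LAMB3, a laminin-332 chain named after its values were seen, came close. It had log2 ratios of -0.24 for tetrac over control and 0.75 for the combination over heteronemin. EPHA1 lay among 145 genes that were higher after tetrac and lower when it was added.

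**Figure D3:**
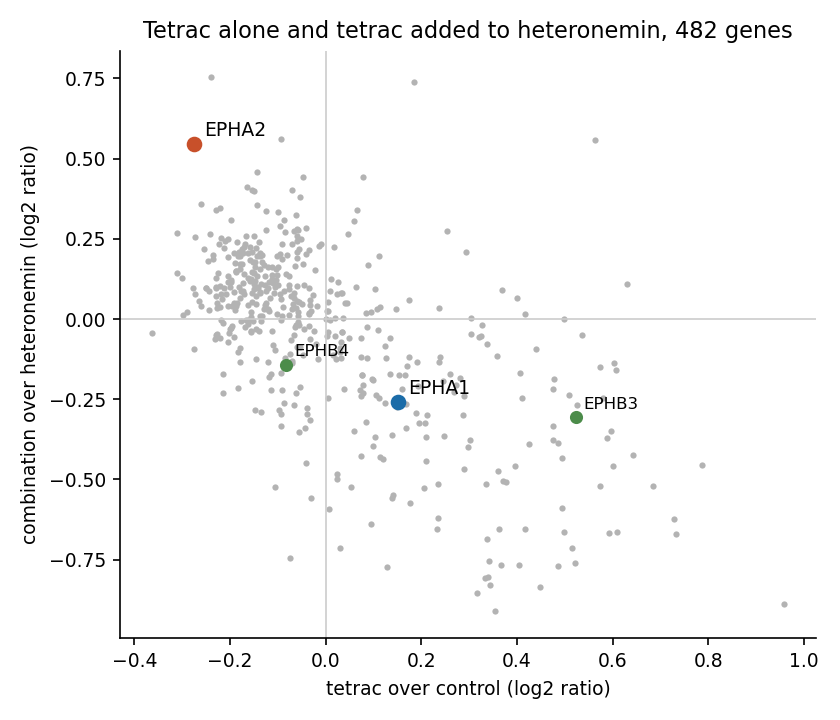
Each point is 1 of 482 genes above the floor in all groups; the horizontal axis is the log2 ratio of tetrac over control and the vertical axis that of the combination over heteronemin, with EPHA1, EPHA2, EPHB3 and EPHB4 named. EPHA2 sits at the upper left edge of the cloud at -0.28 and 0.54, and EPHA1 sits inside the lower right part at 0.15 and -0.26, as part of a cloud in which 74.9% of genes have opposite signs.

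The quotient of EPHA2 over EPHA1 does not depend on how the groups were scaled, since a scaling factor cancels. Relative to control it was 1.77-fold higher after the combination, 1.01-fold higher after heteronemin and 1.34-fold lower after tetrac. The combination exceeded tetrac by 2.38-fold in this quotient. The quotient was formed from genes chosen for these differences and is a description.

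The other Eph receptors on the panel were class B, and 0 ephrins were analysed here. Of 5 Eph receptors measured, 4 were tested, and EPHA1 after tetrac was the only call in the 3 comparisons with control. Over all tested genes, 22.3% were called under the combination, 27.1% under heteronemin and 1.26% under tetrac. With so few receptors tested, this count says little about the family. EPHB4, a receptor of ephrin-B2 known from vessels and the intestinal crypt, had means of 250.52 after the combination, 276.55 after heteronemin and 272.55 after tetrac, against 288.69 in control. Its log2 ratios were -0.20, -0.062 and -0.083, with p = 0.16, 0.29 and 0.14 in the authors' deposited table. EPHB3, which helps to position cells along the crypt in mice, had means of 53.1, 65.59 and 58.35 in the same treated groups, against 40.63 in control, near the floor. Its p-values in the authors' deposited table were 0.43, 0.19 and 0.32. EPHB1 was at the floor in all 4 groups. When tetrac was added to heteronemin, EPHA1, EPHB3 and EPHB4 had log2 ratios of -0.26, -0.30 and -0.14, and EPHA2 was the Eph receptor with a ratio above 0.

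Among 16 other receptor tyrosine kinases, 8 were above the floor in all groups. EGFR, the receptor named in the study's title, fell by 0.31 on the log2 scale after the combination and by 0.38 after heteronemin, with p = 0.01 and p = 0.04 in the authors' deposited table. FGFR3, a receptor of fibroblast growth factors, fell by 0.48 after the combination with p = 0.04 in the authors' deposited table. These were the only calls in the list, in which 2 of 14 tested genes fell under the combination (14.1% of all tested genes fell), 1 of 14 under heteronemin (15.9% of all) and 0 of 15 under tetrac. MET, the receptor of hepatocyte growth factor, had log2 ratios of -0.35 after the combination, -0.40 after heteronemin and -0.15 after tetrac and was not called. For the combination over heteronemin, the median log2 ratio of the 8 kinases above the floor in all groups was -0.25, against 0.54 for EPHA2 and 0.018 for the 482 genes, a filter added after seeing the data. With the 8 kinases that touched the floor in at least 1 group, the median of the 16 was -0.41.

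A list of 18 measured partners of Eph signalling held kinases, proteases and adhesion genes that act with or on these receptors. Under the combination, 1 of 17 tested partners rose and 5 fell, or 29.4% lower, where 8.16% of all tested genes rose and 14.1% fell. Under heteronemin, 1 rose and 7 fell, or 41.2% lower, where 11.2% of all tested genes rose and 15.9% fell. The tested partners all had a mean level of 100 or more, and among all genes of that level 25.0% fell under the combination and 28.9% under heteronemin. Under tetrac, 1 of 17 fell and 0 rose, where 0.98% of all tested genes fell. The median log2 ratio of the list was -0.19 for the combination, -0.33 for heteronemin and -0.14 for tetrac. Over the 356 genes of higher level, the medians were -0.15, -0.19 and -0.11.

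Of the kinases in that list, MAPK3, which encodes ERK1, fell by 0.77 on the log2 scale under the combination, by 0.78 under heteronemin and by 0.30 under tetrac, with p = 0, 0.02 and 0.04 in the authors' deposited table, where a printed 0 stands for any p below 0.005. MAPK3 had means of 343.3 after the combination and 340.38 after heteronemin, against 585.64 in control, while EPHA2 was above control in the first of these groups and close to it in the second. AKT1, a kinase that phosphorylates EPHA2, fell by 0.45 under the combination and by 0.54 under heteronemin. PIK3CA, a catalytic subunit of PI3-kinase, fell by 0.32 under heteronemin. CDC42, a small GTPase of the actin cytoskeleton, fell by 0.34 under the combination and by 0.42 under heteronemin. The kinases SRC and PTK2 and the GTPases RAC1 and RHOA were not called in any comparison.

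Among the called proteases and membrane partners, ADAM17 rose, and MMP14, CDH1 and CAV1 fell. MMP14, a membrane protease that can cut EPHA2, fell by 0.35 under the combination and by 0.60 under heteronemin. ADAM17, a sheddase of membrane proteins, rose by 0.63 under the combination and by 0.40 under heteronemin. CDH1, the E-cadherin that influences where EPHA2 sits in the membrane, fell by 0.45 under heteronemin and had a log2 ratio of -0.11 under the combination without a call. CAV1, the coat protein of caveolae, fell by 0.93 under the combination and by 1.03 under heteronemin. Integrin beta1, ITGB1, and claudin-4, CLDN4, a junction protein that EPHA2 can phosphorylate, were not called; their log2 ratios for the combination over heteronemin were 0.19 and 0.15, below the 0.54 of EPHA2.

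**Figure D4:**
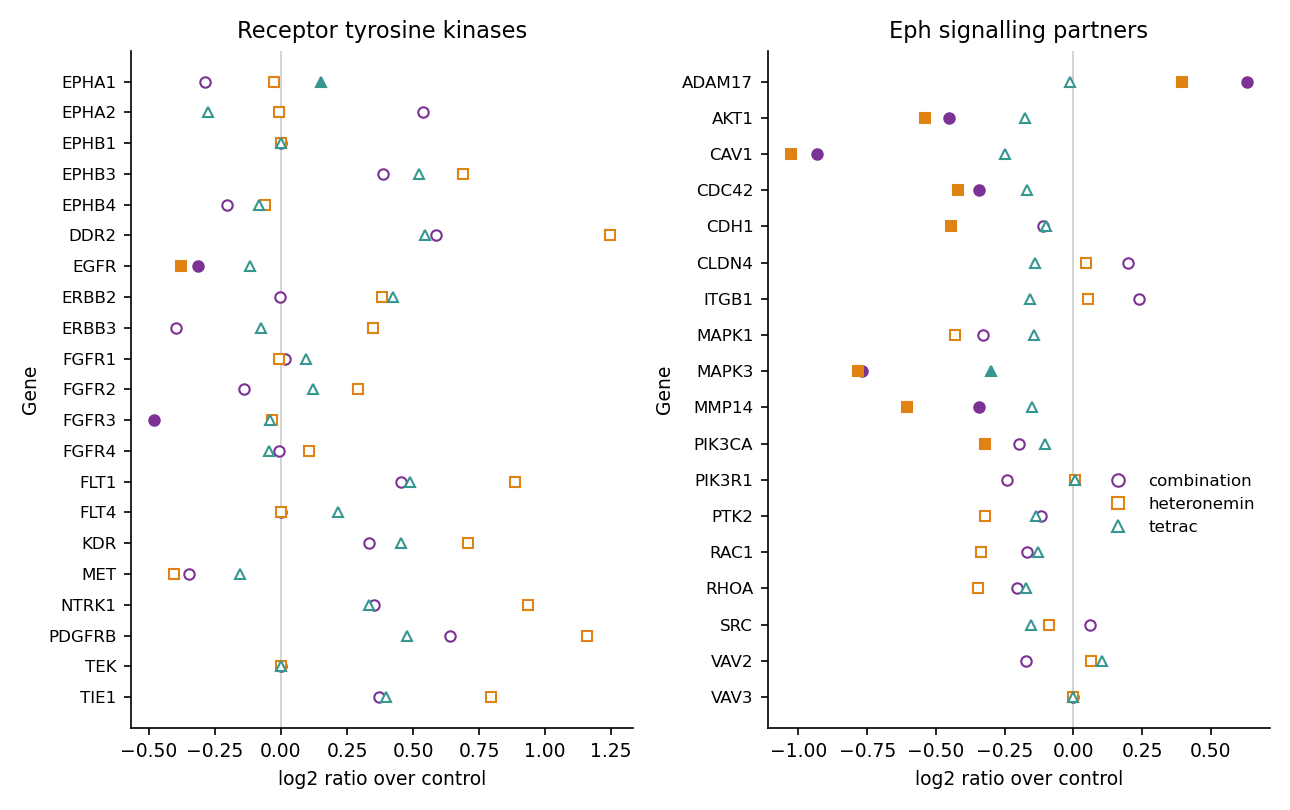
Log2 ratio over control (horizontal axis) of 21 receptor tyrosine kinases (left) and 18 Eph signalling partners (right) for the combination (circles), heteronemin (squares) and tetrac (triangles); filled symbols have p under 0.05 in the authors' deposited table, and points are single ratios of group means without error. EPHA2 has the combination at 0.54 and tetrac at -0.28 on opposite sides of 0, while MAPK3 lies left of 0 with all 3 symbols filled.

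The genes most like each receptor were found among the other 481 genes above the floor, as the 5 with the smallest Euclidean distance between log2 means centred on each gene's own mean over the 4 groups. For EPHA1 they were GPX1, a glutathione peroxidase (distance 0.063), PDGFC, a platelet-derived growth factor (0.065), HSPG2, the basement membrane proteoglycan perlecan (0.105), SP1, a transcription factor that binds GC boxes (0.112), and the secreted protein FSTL1 (0.115). GPX1, the nearest, had means of 286.33 after the combination, 333.72 after heteronemin and 370.69 after tetrac, against 352.89 in control. Whether SP1 acts on EPHA1 was not tested. All 5 were lowest after the combination and highest after tetrac, an order that the choice by likeness favours.

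For EPHA2 the nearest genes lay further off. They were F3, which encodes tissue factor (distance 0.218), RTN4, the reticulon Nogo (0.230), CIB1, a calcium and integrin binding protein (0.233), SDC4, the proteoglycan syndecan-4 (0.243), and FGF2, a fibroblast growth factor (0.245). F3 had means of 277.42 after the combination, 229.05 after heteronemin and 184.37 after tetrac, against 201.13 in control. All 5 were highest after the combination and lowest after tetrac. The choice by likeness favours this order as well. Likeness over 4 means is a weak criterion, and small changes alone bring genes close to EPHA1.

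**Figure D5:**
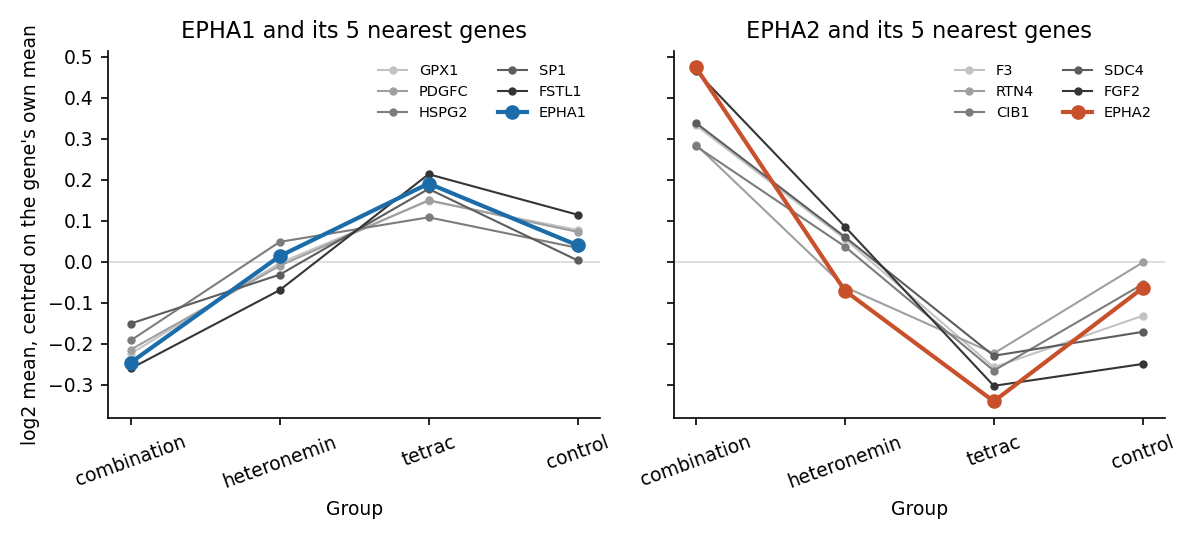
Log2 means of the 4 groups, centred on each gene's own mean (vertical axis), for EPHA1 (left) and EPHA2 (right) in colour and their 5 nearest genes in grey; lines join the groups only to show a gene's pattern, and no error is available. EPHA1 and its neighbours dip in the combination and peak after tetrac, and EPHA2 and its neighbours do the reverse, with EPHA2 below all 5 after tetrac.

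The panel sum and the number of genes at the floor differed between groups. The geometric mean of the 30 housekeeping genes was 297.54 after the combination, 296.06 after heteronemin and 299.45 after tetrac, against 299.6 in control. The authors' biological normalization may itself hold these genes level. The sum of the authors' means was 297671 after the combination, 280484 after heteronemin and 306898 after tetrac, against 333810 in control, and 90, 70 and 61 genes were at the floor, against 279 in control. The raw depth is unknown. The summed mean of 12 epithelial markers was 9035 after the combination, 8098 after heteronemin and 7921 after tetrac, against 8631 in control. Of these 12, KRT7 and CLDN7 rose and 0 fell under the combination, where 8.16% of all tested genes rose and 14.1% fell. Under heteronemin KRT7, CLDN3 and CEACAM6 rose and CDH1 fell, where 11.2% of all tested genes rose and 15.9% fell. OCLN fell and 0 rose under tetrac, where 0.28% of all tested genes rose and 0.98% fell. For 10 markers of other cells (endothelium, blood, stroma) the sum was 544, 629 and 452, against 367 in control, where 10 genes at the floor would give 330. Under heteronemin 2 of the 9 tested rose, where 11.2% of all tested genes did. They were CD34 (2.38-fold, to 84.66, against 35.63 in control) and COL1A1 (2.15-fold, to 144.34, against 67.15 in control). Under the combination and under tetrac 0 of the 9 were called. TEK was at the floor in all groups and the leukocyte marker PTPRC in control. Their part in the EPHA1 and EPHA2 values was not tested.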

How the data were processed

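RNA of 12 HCT-116 samples was counted with the NanoString nCounter PanCancer Progression panel, per the labels' protocols. The authors deposited 3 tables, 1 per treatment, with 770 genes and a shared control column. The deposited signal is the group mean of counts that the authors normalized in nSolver 4.0, by positive controls and then biologically, per the series' design text. The deposited score is the authors' fold change of those means, given a minus sign where treated cells were lower. The deposited p-value was rounded by the authors to 2 decimals; its test and the kind of mean are unstated. Lacking values per sample, no SD, interval or depth can be given.

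Log2 ratios were computed from the means, without a pseudocount. A gene was called at the authors' p under 0.05; contrasts between treatments have no test, and a fold of 1.5 was counted. Benjamini-Hochberg adjustment ran over each table. EPHA1 and EPHA2, the gene lists and the likeness measure were chosen with earlier results of these data known. The rule named all Eph receptors, list members called in at least 1 comparison, and the 5 nearest genes; SRC, PTK2, RAC1, RHOA, MET, ITGB1, CLDN4 and the markers were named after their values were seen. Of the listed partners, 1 gene is not reported here and was left out of the counts. The tables name no genome build. Both symbols matched RefSeq, whose GRCh38.p14 promoter windows were cut to the 250 bases before the start. The contrasts, the adjustment and the level correction were checked on a simulated table. Python 3.11.15, numpy 2.4.6, pandas 2.3.3 and matplotlib 3.10.9 were used.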

Additional observations from a re-analysis of the deposited data

How the results depend on the processing

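Of 84 values of EPHA1 and EPHA2 under 6 other settings, 64 stayed within 0.1 (log2) of the value reported and 20 moved by more; without replicate values, 0.1 was used in place of a spread. The sign turned in 6, all for heteronemin over control, and in 0 of the other comparisons. Scaling to housekeeping genes shifted all log2 ratios by 0.010 for the combination, 0.017 for heteronemin and 0.0007 for tetrac over control. Scaling to the panel sum shifted them by 0.17 for the combination, 0.25 for heteronemin and 0.12 for tetrac over control. It put EPHA1 at -0.12, 0.22 and 0.27 and EPHA2 at 0.70, 0.24 and -0.16 in these comparisons, at -0.047 and 0.40 for heteronemin over tetrac, and the departures at -0.62 and 0.61. Scaling to the median gene, a shift of 0.11 for heteronemin, put EPHA1 at 0.082 and EPHA2 at 0.10 there and the departures at -0.54 and 0.69. Minus the median of 51 genes of like level, EPHA2 was at 0.20 for heteronemin and -0.16 for tetrac over control with a departure of 0.57, and EPHA1 was at -0.14 for the combination over heteronemin. With the floor subtracted, EPHA1 was at -0.56 for the combination over tetrac with a departure of -0.53, and the change of EPHA2 over EPHA1 under the combination was 0.95 on the log2 scale, against 0.82 (a setting chosen after seeing the data). The causes were not tested.

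The call of EPHA1 after tetrac stood at the largest p that rounds to the printed one, but 0 Eph receptors were left with Benjamini-Hochberg adjustment or at 1.5-fold. With that adjustment 0 other receptor tyrosine kinases stayed called in any comparison, and 2, 1 and 0 Eph partners for the combination, heteronemin and tetrac, or 0 in each with the largest p (chosen after seeing the data). At 1.5-fold or more, 0 other receptor kinases and 3, 3 and 0 partners were called. The shares of all tested genes that pass the adjustment or the fold limit were not counted. The counts under these settings therefore say nothing particular about the lists. No paired analysis was possible because the tables hold group means without replicate columns, and for the same reason leaving out replicates was not run. Without raw counts, what depth limits cannot be said; genes near 33 have only a bound.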

Other observations

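The genes nearest EPHA2 in the ranking of departures from additive log2 ratios were named after their values were seen. The largest of the 482 was that of LAMB3, a laminin-332 chain, with a log2 departure of 0.99 and means of 363.15 after the combination, 215.5 after heteronemin and 86.16 after tetrac, against 101.82 in control. CBLC, a ubiquitin ligase of the CBL family, had a departure of 0.66, the hypoxia-responsive gene NDRG1 had 0.62, PPFIBP2 had 0.60 and the transporter SLC35A3 had 0.58. PPFIBP2 lay near the floor of 33, with means of 53.14 after the combination, 38.67 after heteronemin and 45.06 after tetrac, against 49.81 in control. LAMB3 and NDRG1 were above control after heteronemin alone too, at means of 215.5 and 1084, against 101.82 and 721 in control, whereas EPHA2 was not, at 383.56 against 385.25. CBLC had 85.45 after the combination, 57.9 after heteronemin and 72.35 after tetrac, against 77.21 in control.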
